A study of Brassica rapa subsp. pekinensis with 2 samples.

Results

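The miRNA families numbered miR771 to miR870, most of which were first described in Arabidopsis and count as evolutionarily young, were examined in the small RNA of anthers and seedlings of Chinese cabbage (Brassica rapa subsp. pekinensis). The members were every listed miRNA whose name carries a number in that range, except the families miR824, miR827, miR829, miR838, miR845 and miR857. They came to 6 of the 1152 distinct sequences in the table, under 7 of its 1359 records. They belonged to 3 families, miR828, miR858 and miR860. A genome position was given for 5 of the 6, and the remaining one, mdm-miR858, was kept apart.

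The study compared 1 small RNA library of anthers pooled over developmental stages (‘Ant’) with 1 library of whole seedlings at the stage of 4 true leaves, holding root, stem and leaf together (‘Mix’). Both came from greenhouse plants of the doubled haploid line ‘FT’. The study's methods give a cold treatment (vernalization) for the anther plants alone, while the sample labels give it for both, so that cold treatment, plant age and tissue cannot be told apart here. The reads of all distinct sequences added up to 1346716 in ‘Ant’ and 1393755 in ‘Mix’. With 1 library per group, every test below compares these 2 libraries and not the tissues at large, and neither tissue had a replicate. In these bulk samples, fewer cells that hold a miRNA and less of it per cell cannot be told apart. As a check of the labels, the 3 sequences with a genome position of miR845, a family found in Arabidopsis pollen, all had more reads in ‘Ant’. In sum they had 11214 reads in ‘Ant’ against 95 in ‘Mix’. Most of these were of ath-miR845a, with 10546 and 95 reads, while the least abundant of the 3 had 7 and 0. No marker of root, stem or leaf was set.

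miRNAs are cut from hairpin precursors by a Dicer-like enzyme, which leaves a short duplex of the 5′ arm (5p) and the 3′ arm (3p). One strand of the duplex guides an Argonaute protein to matching mRNAs. In Arabidopsis, miR828 and miR858 both pair with mRNAs of R2R3-MYB transcription factors, which control anthocyanin and flavonol synthesis. miR828 also cuts the non-coding TAS4 transcript and so starts the release of secondary siRNAs, a function linked to miRNAs that are longer than usual. The role of miR860 is less settled. miR860 is known from the cabbage family, whereas miR828 and miR858 also occur in other flowering plants such as apple, so that the name of a young lineage fits them less well.

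The 6 mature sequences are given here because the families, the seed and the length all follow from them. The letters are those of the table, with T in place of U, and bases 2 to 8, the seed, are in capitals.
ath-miR828: tCTTGCTTaaatgagtattcca
ath-miR828_1ss14AG: tCTTGCTTaaatgggtattcca
cas-miR858: tTTCGTTGtctgttcgacctt
mdm-miR858: tTCGTTGTctgttcgacctga
bra-miR860-5p: aTGTAGTCcaatctattgaag
bra-miR860-3p: tCAATACAttggactacatat
The pair of miR828 sequences shared 1 seed, and no other pair of members did. Outside the members, only gma-miR6300_R+2 shared a seed with any of them, namely that of mdm-miR858, and it had 62 reads in ‘Mix’ and 202 in ‘Ant’. A 5′ T opened 5 of the 6 sequences, against 416 of all 1152 (36.1%), and bra-miR860-5p was the exception with A.

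The members differed in level over 3 orders of magnitude, and they did not move one way. Both miR828 sequences and bra-miR860-3p were higher in ‘Ant’, cas-miR858 and mdm-miR858 were lower, and bra-miR860-5p was not called. A sequence was called where both the chi-square test and the two-sided Fisher exact test gave a p of 0.05 or less on the normalized reads and the log2 ratio of ‘Ant’ to ‘Mix’ was beyond 1 in size. Of all 1152 sequences, 314 (27.3%) were called higher in ‘Ant’ and 222 (19.3%) lower, so that 3 and 2 calls among 6 members were read against those shares. The median log2 ratio of the 6 members was 0.56 and that of all sequences was −0.01, with values under 3 reads set to 3 reads. Together the 5 members with a genome position held 3558 reads in ‘Mix’, which is 0.255% of the reads of all sequences, and 2243 reads in ‘Ant’, or 0.167%.

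**Figure D1:**
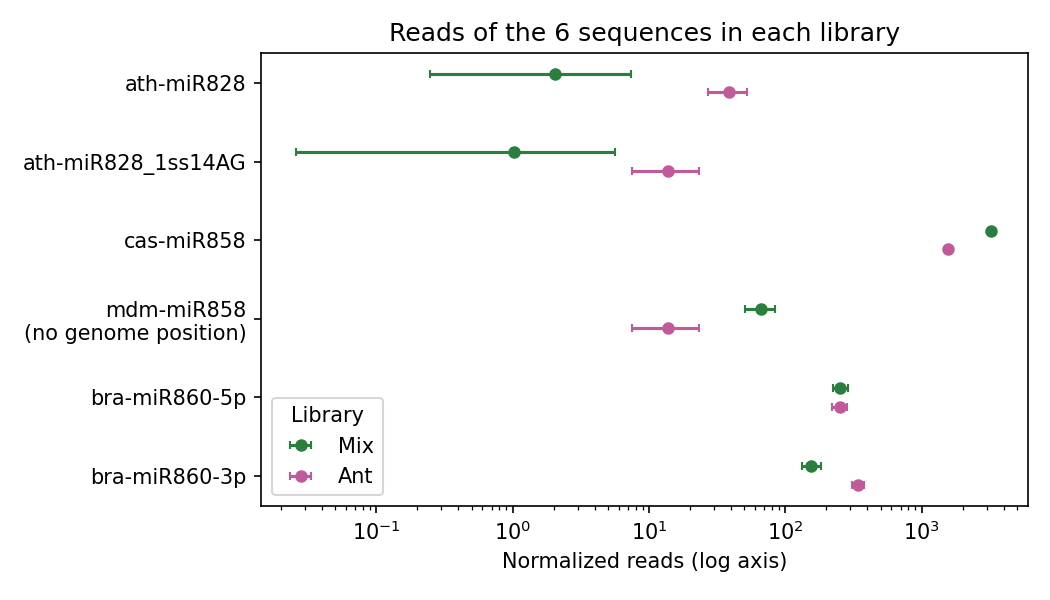
Normalized reads (log axis) of the 6 sequences in the ‘Mix’ and ‘Ant’ libraries, 1 point per library. Bars are exact 95% Poisson intervals, which cover counting error only; the intervals of the libraries overlap for bra-miR860-5p alone.

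miR828 was nearly absent from the seedling library and present at a low level in the anther library. Its main form, ath-miR828, is cut from the 5′ arm and is 22 nt long. It had 2 reads in ‘Mix’ and 39 in ‘Ant’, or 2.03 and 38.4 normalized reads. The log2 ratio was 4.24, with an exact 95% interval from 2.29 to 7.34, and the two-sided Fisher exact p was 3.50e-10 (1.48e-09 after Benjamini-Hochberg adjustment over 1152 sequences). The width of that interval comes from the 2 reads in ‘Mix’, and it leaves the size of the difference poorly fixed. By reads, ath-miR828 ranked 308th of the 1152 sequences in ‘Ant’.

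The same precursor arm gave this sequence at 2 positions, chromosome A01 from 9934747 to 9934874 on the plus strand and chromosome A08 from 15063834 to 15063973 on the minus strand. Its reads match both and cannot be divided between them. The other form, ath-miR828_1ss14AG, was placed on chromosome A03 from 27901353 to 27901492 on the plus strand. It differs from ath-miR828 by A14G, counted from 1 at the 5′ end with the base of ath-miR828 first, and this base lies outside the seed. The table marks it as different from its miRBase entry, while its letters match the listed A03 precursor without a mismatch.

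The A03 form moved like the main form, at a lower level. ath-miR828_1ss14AG had 1 read in ‘Mix’ and 14 in ‘Ant’, or 1.02 and 13.8 normalized reads. Its log2 ratio was 3.76, with an exact 95% interval from 1.05 to 9.16 and a two-sided Fisher exact p of 3.64e-04 (Benjamini-Hochberg adjusted 9.93e-04). In ‘Mix’ the main form made up 66.7% of miR828 reads, with a Wilson 95% interval from 20.8 to 93.9%. In ‘Ant’ its share was 73.6%, with an interval from 60.4 to 83.6%. With only 3 reads of the family in ‘Mix’, no difference in this share was detectable (two-sided Fisher exact p = 1). Summed over both forms, miR828 had 3 reads in ‘Mix’ and 53 in ‘Ant’, a log2 ratio of 4.10 (exact 95% interval 2.47 to 6.42).

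The 3 miR828 precursors were similar hairpins. Aligned end to end, A08 and A03 were identical in 83.4% of columns, A01 and A08 in 79.0% and A01 and A03 in 78.3%. In the deposited structures 19 of the 22 mature bases were paired at each locus. The folding energy was −60.6 kcal/mol at A01, −61.4 at A08 and −50.2 at A03. No 3′ arm sequence was listed for any of the 3, whereas 246 of the 352 precursors of known miRNAs (69.9%) had both arms listed. In the RefSeq annotation CAAS_Brap_v3.01, used here for names only, the A03 hairpin lay inside the lncRNA gene LOC117132728, the A01 hairpin lay between LOC103867628 and LOC103867637, and the A08 hairpin lay between LOC117127523 and the pseudogene LOC103834793.

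miR858 held most of the members' reads in both libraries and was 2.05 times lower in the anther library. cas-miR858, named from a Camelina sativa entry and assigned to the 3′ arm, had 3153 reads in ‘Mix’ and 1589 in ‘Ant’, or 3203 and 1564 normalized reads. It ranked 52nd of all sequences in ‘Mix’ and 72nd in ‘Ant’. The log2 ratio was −1.03, with an exact 95% interval from −1.12 to −0.95 and a two-sided Fisher exact p of 9.87e-105 (Benjamini-Hochberg adjusted 1.14e-103). The interval spans the threshold of −1, so the direction was well fixed by the depth and the call was not. Scaled to the reads of all listed miRNAs, the log2 ratio was −0.94 and the sequence was not called. Its share of the reads of the members with a genome position was 88.6% in ‘Mix’ and 70.8% in ‘Ant’.

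The listed position of cas-miR858 was chromosome A07 from 25146773 to 25146860 on the plus strand. In RefSeq no gene overlapped it, and the nearest genes were LOC103831630 and LOC103832250. The read and the precursor at this position are not identical, and they are set side by side here with the differing base in capitals.
cas-miR858 as listed: tttcgttgtctGttcgacctt
A07 precursor, bases 63 to 83: tttcgttgtctAttcgacctt
The substitution is G12A, counted from the 5′ end with the base of the read first. Of 193 records of known miRNAs with a position and an exact miRBase sequence, 21 likewise lacked an exact match in their listed precursor. The A07 hairpin was also a weak one, and it is printed with the mature stretch in capitals.
A07 precursor: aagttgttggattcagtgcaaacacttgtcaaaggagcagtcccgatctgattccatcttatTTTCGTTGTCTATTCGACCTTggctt
Its folding energy was −14.7 kcal/mol and its minimal folding energy index, the energy scaled by length and GC content, was 0.40. Only 4 of 739 precursors had an index this low, and their median was 1.3. In the deposited structure 9 of the 21 mature bases were paired, against a median of 19 in exactly placed known miRNAs. The notes of the table set an energy of at most −15 kcal/mol and at least 12 pairs in the mature region for hairpins. The reads of cas-miR858 are counts of the sequence itself, and from which precursor they came was not tested.

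The second miR858 sequence, mdm-miR858, was named from apple and has no genome position in the table. It shares 19 bases with cas-miR858, shifted by 1 base, and these are in capitals.
cas-miR858, shared stretch: tTTCGTTGTCTGTTCGACCTt
mdm-miR858, shared stretch: TTCGTTGTCTGTTCGACCTga
It had 65 reads in ‘Mix’ and 14 in ‘Ant’, or 66.0 and 13.8 normalized reads. The log2 ratio was −2.26, with an exact 95% interval from −3.21 to −1.41 and a two-sided Fisher exact p of 1.42e-08 (Benjamini-Hochberg adjusted 5.54e-08). Both miR858 sequences were thus lower in the anther library. The mdm-miR858 form made up 2.02% of the reads of both in ‘Mix’ (Wilson 95% interval 1.59 to 2.57%) and 0.873% in ‘Ant’ (0.521 to 1.46%), so its log2 ratio was lower than that of cas-miR858 by a difference of −1.23 (exact 95% interval −2.18 to −0.37, two-sided Fisher exact p = 0.00248). Among the 93 known sequences without a genome position, 37 (39.8%) were called lower in ‘Ant’ and 8 higher, against 19.3% lower and 27.3% higher over all sequences, and this difference in shares was not tested. The table assigns mdm-miR858 to the 5′ arm of the apple precursor and cas-miR858 to the 3′ arm of its own, although they share nearly all their letters.

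miR860 was the one member family with both arms listed, and the arms did not move together. bra-miR860-3p was 2.20 times higher in the anther library, and bra-miR860-5p differed between the libraries by less than counting error. Both come from chromosome A06, 22646927 to 22647041 on the plus strand, where RefSeq places its own MIR860 gene. RefSeq and the table gave the same start and end for 78 of the 87 miRNA genes that RefSeq names as the table does. The locus lay inside the protein-coding genes LOC117126194 and LOC103874503 of the RefSeq annotation. The precursor is printed with both arms in capitals, the 5p first.
A06 precursor: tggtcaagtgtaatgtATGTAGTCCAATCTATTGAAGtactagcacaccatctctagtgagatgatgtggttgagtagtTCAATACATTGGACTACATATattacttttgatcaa
The arms formed 18 base pairs with each other in the deposited structure, and each ended in a 3′ overhang of 2 bases, the form of duplex that a Dicer-like enzyme leaves. The folding energy was −61.3 kcal/mol with an index of 1.5.

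bra-miR860-5p had 249 reads in ‘Mix’ and 254 in ‘Ant’, or 253 and 250.0 normalized reads. The log2 ratio was −0.02 (exact 95% interval −0.28 to 0.24, two-sided Fisher exact p = 0.562), and its interval lay inside the threshold on both sides. bra-miR860-3p had 153 reads in ‘Mix’ and 347 in ‘Ant’, or 155 and 342 normalized reads. Its log2 ratio was 1.14, with an exact 95% interval from 0.86 to 1.42 and a two-sided Fisher exact p of 3.72e-20 (Benjamini-Hochberg adjusted 2.10e-19). This interval also spans the threshold, and with TMM scaling the log2 ratio was 0.93 and the sequence was not called. Summed over the arms, miR860 had 402 reads in ‘Mix’ and 601 in ‘Ant’, a log2 ratio of 0.53 (exact 95% interval 0.35 to 0.72) that stayed under the threshold.

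**Figure D2:**
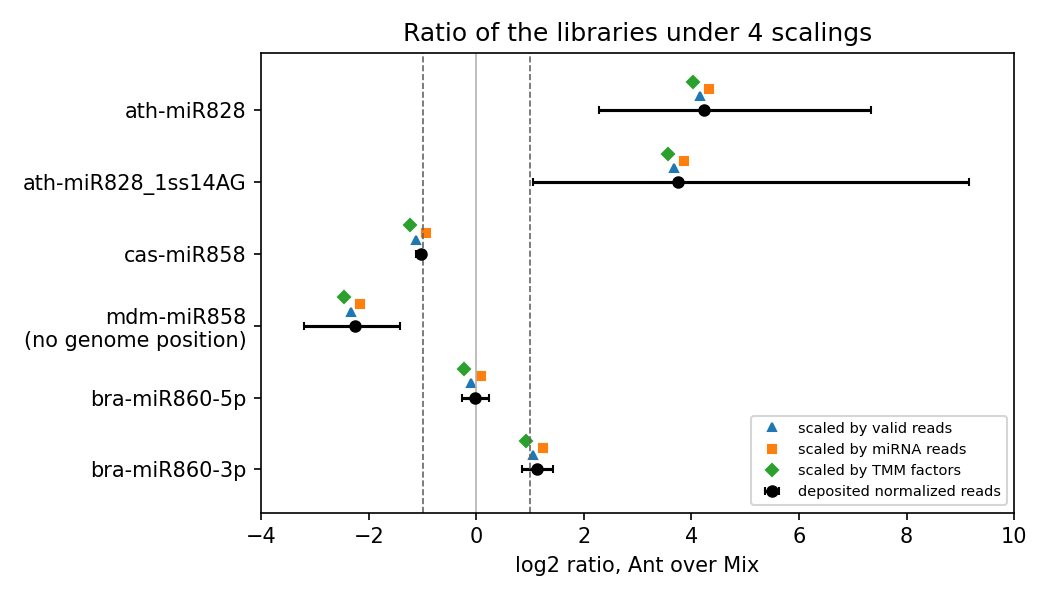
log2 ratio of ‘Ant’ to ‘Mix’ for each sequence from the deposited normalized reads (black, with exact 95% intervals for counting error) and under 3 other scalings. Dashed lines mark the threshold of 1 in size. cas-miR858 at −1.03 and bra-miR860-3p at 1.14 lie at the lines, and both miR828 sequences and mdm-miR858 lie beyond them under every scaling shown.

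The ratio of the arms within a library does not depend on how the libraries were scaled. The 5p arm gave 61.9% of miR860 reads in ‘Mix’ (Wilson 95% interval 57.1 to 66.6%) and 42.3% in ‘Ant’ (38.4 to 46.2%), so that the arm with more reads was the 5p in the seedling library and the 3p in the anther library. There were 1.63 reads of the 5p for each read of the 3p in ‘Mix’ and 0.732 in ‘Ant’. The log2 of this ratio was lower in ‘Ant’ by a difference of −1.15, with an exact 95% interval from −1.54 to −0.77 (two-sided Fisher exact p = 1.22e-09, or 4.71e-09 after Benjamini-Hochberg adjustment over 274 pairs of arms). Such differences were common in these libraries. The 274 pairs had at least 10 reads per arm summed over both libraries, so that an arm could have few or no reads in one of them. Of these pairs, 113 (41.2%) passed the Fisher exact test with a log2 difference beyond 1 in size, and in 37 (13.5%) the leading arm changed as well. The median size of the difference over all pairs was 1.37, and miR860 ranked 152nd of 274 by size. Only 251 of the pairs had reads on both arms in both libraries. Where a missing arm made the difference infinite, the pair was ranked among the largest. Some sequences also stood in several pairs, so that the pairs are not all separate.

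**Figure D3:**
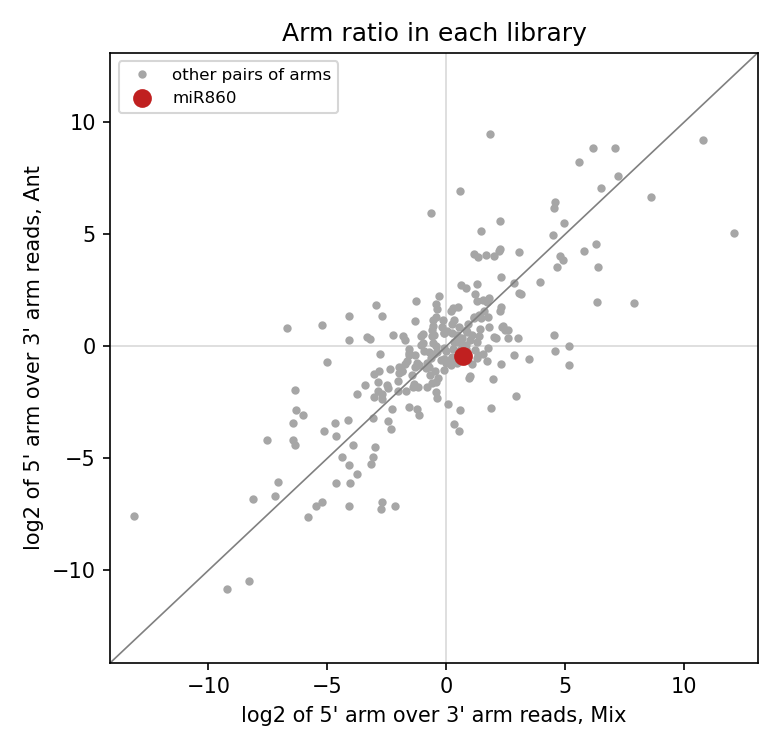
log2 ratio of 5′ arm to 3′ arm reads in ‘Mix’ (horizontal axis) and in ‘Ant’ (vertical axis) for the 251 pairs of arms with reads on both arms in both libraries. miR860 (large point, 0.70 in ‘Mix’ and −0.45 in ‘Ant’) lies below the line of equal ratios, within the cloud of the other pairs (small points).

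By length, the members with a genome position were of 2 kinds, 22 nt for the miR828 forms and 21 nt for miR858 and miR860. In ‘Mix’ 3 reads were 22 nt and 3555 were 21 nt, a 22 nt share of 0.0843% (Wilson 95% interval 0.0287 to 0.248%). In ‘Ant’ 53 were 22 nt and 2190 were 21 nt, a share of 2.36% (1.81 to 3.08%). The log2 odds ratio was 4.84 (two-sided Fisher exact p = 6.24e-19), and since length and family coincide here it restates the rise of miR828 beside the fall of miR858. Over all sequences, 141 of 1152 (12.2%) were 22 nt long and 566 (49.1%) were 21 nt.

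Other families were set beside the members by counts of calls, to be read against 27.3% higher and 19.3% lower over all 1152 sequences. The counts take in sequences of both arms with a genome position, while targets are named for the family and not for each arm. In miR159, a family that targets GAMYB-like mRNAs in Arabidopsis, all 3 sequences were lower, with 46921 reads in ‘Mix’ and 6415 in ‘Ant’. Nearly all of these reads were of the 3′ arm, with 46024 in ‘Mix’ and 6043 in ‘Ant’. The 5′ arm sequences had 558 and 282 reads, and 339 and 90. The first of these had a log2 ratio of −1.03, as close to the threshold as that of cas-miR858. Among the 6 sequences of miR319, a family related to miR159 in sequence that chiefly targets TCP mRNAs, 1 was higher and 2 were lower. The higher one was of the 5′ arm, with 144 reads in ‘Mix’ and 364 in ‘Ant’. The lower ones were a 5′ arm sequence (223 and 9 reads) and a 3′ arm sequence (3017 and 466). The miR319 sequence with the most reads, also of the 3′ arm, was not called, with 3735 reads in ‘Mix’ and 3973 in ‘Ant’. Listed together with miR828 and miR858, these families had 12 sequences with a genome position, of which 3 were higher and 6 lower, the 3 including both miR828 forms. Among the families that start secondary siRNAs from TAS transcripts, miR390 had 7 sequences, of which none was higher and 2 were lower. The lower ones were 3′ arm sequences, with 86.3 reads in ‘Mix’ and 8 in ‘Ant’, and 45.5 and 18. The main 5′ arm sequence of miR390, with 4146.5 reads in ‘Mix’ and 2364 in ‘Ant’, was not called. For miR173 no sequence with a genome position was listed. Of the 9 sequences with a genome position in the 6 excepted families of the same number range, 5 were higher and 2 lower, with a median log2 ratio of 1.18. All 3 miR845 sequences were among the 5. For these medians, values under 3 reads were set to 3 reads. The 1.18 was the ratio of a miR845 sequence with 0 reads in ‘Mix’ and 7 in ‘Ant’, so that this floor sets its size. The median of the 5 members with a genome position was 1.14, with 3 higher and 1 lower.

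The sequences with the most similar pair of levels were named for each member by the smallest distance over the log2 normalized reads of both libraries, plus 1. For cas-miR858 it was aly-miR156a-5p, with 2958 reads in ‘Mix’ and 1308 in ‘Ant’. For bra-miR860-3p it was ath-MIR319c-p5, with 144 and 364 reads. For bra-miR860-5p it was ath-miR160a-3p_1ss16TA, with 204.5 and 233.5 reads. For both miR828 forms it was a bra-MIR9563a-p3 variant, with 2 and 40 reads beside ath-miR828 and 1 and 16 beside ath-miR828_1ss14AG. For mdm-miR858 it was bra-MIR5722-p5, with 73 and 11. With only 2 libraries, such likeness describes levels and nothing more.

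The tests above allow for counting error alone. In an edgeR exact test with an assumed biological coefficient of variation of 0.4, the calls of ath-miR828 (p = 9.97e-04), ath-miR828_1ss14AG (p = 0.0207) and mdm-miR858 (p = 0.0223) were kept, where 17.1% of all sequences were called higher and 12.4% lower. In the same exact test those of cas-miR858 (p = 0.22) and bra-miR860-3p (p = 0.184) were lost. These exact test p-values were not adjusted for the number of sequences. At an assumed coefficient of 0.2 all 5 calls were kept, so that the outcome rests on a value that these libraries cannot give.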

How the data were processed

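Per the study's methods and the notes in the table, adapter dimers, low-complexity reads and other small RNA classes were removed, and the remaining reads of 18 to 25 nt were matched to miRBase and the genome. The deposited table gives for each miRNA an estimated count of reads in each library, which the authors left not always whole, a normalized signal (the counts times a factor of 1.016 for ‘Mix’ and 0.984 for ‘Ant’), and hairpin values the authors computed: GC content in percent, folding energy and an index (score). The build of the positions is not given in the sources used here.

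Each distinct sequence was counted once. Normalized reads were rounded to whole numbers and tested by chi-square without correction and the two-sided Fisher exact test (scipy 1.17.1), against the sum over all 1152 sequences. Intervals are exact binomial for ratios and Wilson for shares. Without molecular identifiers they take in the error of counting alone. edgeR 4.0.16 (R 4.3.3) gave TMM factors and the exact test at assumed coefficients of variation of 0.2 and 0.4, on counts rounded to whole numbers. Valid read totals served as another scaling. Named sequences were all members, those sharing a seed with one, and the nearest known sequence with a position for members with at least 10 reads in a library. Alignments used Biopython 1.88. The calling script was tested on simulated data with counting error only, which says nothing of variation between replicates. The members and lists were chosen with earlier results of these data known.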

Additional observations from a re-analysis of the deposited data

How the results depend on the processing

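Of 72 alternative values, none passed the threshold in the opposite direction. Of these, 64 kept their side of the threshold or, for a count of calls, stayed within 1.5 times of the count reported. Among the 64, the log2 ratio of bra-miR860-5p, not called in any setting, changed sign from −0.02 to 0.08 with scaling by miRNA reads. The number of members called lower in ‘Ant’ dropped from 2 to 1 when libraries were scaled by miRNA reads, when reads were tested in place of normalized values, at a log2 threshold of 2, and in the edgeR exact test at an assumed coefficient of variation of 0.4; each time cas-miR858 was the call lost. The miR858 family total was then −0.94 on the log2 scale with scaling by miRNA reads. The number called higher dropped from 3 to 1 when at least 10 reads in both libraries were required, which removes both miR828 forms by construction, and to 2 with TMM factors, at a log2 threshold of 2 and in the edgeR exact test at 0.4, where bra-miR860-3p was the call lost. For bra-miR860-3p the log2 ratio was 0.93 with TMM factors, which shifted every log2 ratio by −0.21. Over all sequences, the requirement of 10 reads in both libraries left 109 higher and 119 lower calls in place of 314 and 222, a share of higher calls of 47.8% in place of 58.6%; the edgeR test at 0.4 gave 197 and 143, and the threshold of 2 gave 239 and 158. No paired analysis was possible because each group had 1 library, and for the same reason no library could be left out. Depth limits miR828, whose 3 reads in ‘Mix’ leave the size of its difference open over several log2 units.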
